A study of Mus musculus with 4 samples.

Results

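The genes described here carry the electrical steps by which a β cell turns glucose into calcium entry. They are Kcnj11, Abcc8, Cacna1c, Cacna1d, Kcnk16, Trpm5, Kcnma1, Scn9a and Atp2a3, 9 of the 32227 genes listed for the mouse islet libraries, and they were chosen by symbol. Islet cells were profiled by droplet single-cell RNA sequencing, in which each molecule is counted once by its unique molecular identifier (UMI). The mutant was homozygous Myt3IM/IM, with a 12 bp insertion made by CRISPR-Cas9 in an exon of Myt3, a zinc finger transcription factor gene also named St18. The insertion disrupts an upstream open reading frame, was carried in the germline and was therefore present in every cell type. The control was wild type at Myt3. The labels place 2 libraries in each group; mutant 1, mutant 2 and control 2 were analysed, and the counts of control 1 were not analysed here. Per the study's methods each sample pooled islets of 2 males and 2 females, and the mice were adult per the labels, with no exact age given there. The founder was outcrossed before use. The sources differ on diet and platform: a high-fat diet and inDrop-Seq stand in the study's text, a normal diet and PIPseq in the labels, and the counts do not settle either. The comparison asks how the RNA of these genes differs in islet cells in which the upstream reading frame that overlaps the main one of Myt3 is disrupted.

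In a β cell at rest, ATP-sensitive potassium channels hold the membrane at a negative voltage. When glucose metabolism raises ATP these channels close, the membrane depolarises, voltage-gated calcium channels open and the calcium that enters triggers insulin release. Other potassium channels repolarise the membrane, sodium and nonselective cation channels add to depolarisation, and pumps return calcium to the endoplasmic reticulum. Kcnj11 encodes the pore of the ATP-sensitive potassium channel and Abcc8 its sulfonylurea-binding subunit. Cacna1c and Cacna1d encode pores of L-type calcium channels. Kcnk16 encodes a background potassium channel, Kcnma1 a potassium channel opened by voltage and calcium, Trpm5 a calcium-activated cation channel that passes sodium, Scn9a a voltage-gated sodium channel, and Atp2a3 a calcium pump of the endoplasmic reticulum (SERCA3).

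The start regions of 4 members are printed because the results turn on them: Trpm5 and Atp2a3 had the highest ratios between genotypes when all β cells were summed, Scn9a differed between β and δ cells, and Kcnk16 between β and α cells. The windows come from RefSeq on GRCm38.p6 and run from 250 bases before to 50 bases after the start, 5′ to 3′ on the strand of the gene. They lie at chr7:143094593-143094892 (− strand) for Trpm5, chr11:72960919-72961218 (+ strand) for Atp2a3, chr2:66634913-66635212 (− strand) for Scn9a and chr14:20269220-20269519 (− strand) for Kcnk16. Capitals mark letters that matched a motif searched on both strands.
Trpm5: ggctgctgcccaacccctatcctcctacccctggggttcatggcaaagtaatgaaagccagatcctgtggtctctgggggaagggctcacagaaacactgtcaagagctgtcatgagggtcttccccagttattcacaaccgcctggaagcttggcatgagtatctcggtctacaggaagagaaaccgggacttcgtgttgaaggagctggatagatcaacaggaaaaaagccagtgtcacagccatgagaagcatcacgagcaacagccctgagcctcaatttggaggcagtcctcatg
Atp2a3: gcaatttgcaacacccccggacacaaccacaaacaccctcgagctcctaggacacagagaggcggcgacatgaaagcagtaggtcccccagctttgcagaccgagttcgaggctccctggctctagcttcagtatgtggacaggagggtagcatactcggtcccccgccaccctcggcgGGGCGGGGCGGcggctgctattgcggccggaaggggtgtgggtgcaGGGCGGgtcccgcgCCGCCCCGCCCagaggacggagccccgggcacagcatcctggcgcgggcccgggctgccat
Scn9a: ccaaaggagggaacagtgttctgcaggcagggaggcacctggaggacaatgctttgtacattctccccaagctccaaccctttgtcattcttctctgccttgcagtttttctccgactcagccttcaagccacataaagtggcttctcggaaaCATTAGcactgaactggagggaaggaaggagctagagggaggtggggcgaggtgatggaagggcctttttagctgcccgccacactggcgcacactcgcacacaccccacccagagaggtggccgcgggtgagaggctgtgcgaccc
Kcnk16: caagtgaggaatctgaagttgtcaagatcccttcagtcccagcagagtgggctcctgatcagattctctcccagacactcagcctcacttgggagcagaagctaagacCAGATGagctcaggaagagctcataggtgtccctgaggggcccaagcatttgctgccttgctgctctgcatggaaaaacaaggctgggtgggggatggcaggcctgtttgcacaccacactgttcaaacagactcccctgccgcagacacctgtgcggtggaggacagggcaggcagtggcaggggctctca

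The motifs searched were the GC box (GGGCGG, in 35.7% of all 32851 windows), the A box (CTAATG, 7.36%), the NEUROD1 E box (CAGATG, 17.2%), a MAF half-site (TGCTGAC, 4.67%), a MYT element (AAAGTTT, 4.74%) and the TATA box (TATAAA, 13.6%). The Atp2a3 window held 5 GC boxes, at 71, 66 and 25 bases before the start on the strand shown and at 11 and 6 bases before it on the other strand, with neighbours sharing letters. Its GC content was 68.3% with 25 CG pairs, against medians of 52.7% and 7 over all windows. The Trpm5 window held none of the 6 motifs, with a GC content of 53.0% and 5 CG pairs. The Scn9a window held 1 A box on the other strand, 97 bases before the start, and the Kcnk16 window 1 E box, 142 bases before the start. The tables held windows for 7 of the 9 members, 10 windows in all, and none of them held the MAF or MYT letters. Such matches describe letters only, and nothing is drawn from them about binding. Kcnj11 and Abcc8 lie on chromosome 7 on the same strand, 3758 bases apart (chr7:46093953-46100764 and chr7:46104523-46180033, GRCm38). Cacna1c lies at chr6:118587240-119196418, Cacna1d at chr14:30039939-30491455, Kcnk16 at chr14:20261376-20269199, Kcnma1 at chr14:23289431-24014491 and Scn9a at chr2:66480080-66634962, all on the − strand, and Atp2a3 at chr11:72961169-72993044 on the + strand. These coordinates are those of the reference annotation, whereas the deposited counts were made on GRCm39 per the processing notes.

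The libraries differed in depth. They held 8448466, 9013499 and 36985253 UMIs in mutant 1, mutant 2 and control 2, over 3023, 2045 and 2308 barcodes, and no barcode was shared between libraries. A β cell was a cell with an insulin share of at least 20% of its UMIs and every other hormone below 2%, which gave 2150, 1493 and 1996 β cells with medians of 2880, 4615 and 16300 UMIs. The median insulin share was 39.9%, 42.1% and 55.1%, and the summed glucagon share of these cells was 0.249%, 0.301% and 0.0165%. Near the limit on either side, 321, 188 and 78 of the kept cells had insulin shares between 15% and 25%. α, δ and PP cells had glucagon, somatostatin or pancreatic polypeptide at 5% or more of UMIs, above insulin and at least 3 times the others, which gave 285, 210 and 34 α cells, 20, 29 and 27 δ cells and 49, 35 and 19 PP cells. Summed, markers other than the hormones followed the names of the classes in β and α cells. The 9 β markers summed to 128757, 114650 and 79982 CPM (counts scaled to a common library total) in β cells against 15256, 12099 and 7196 in α cells. The 7 α markers summed to 9156, 11496 and 11751 CPM in α cells against 969, 1119 and 3798 in β cells. Of the α markers, Gc went the other way in control 2, at 259 CPM in β cells against 107 in α cells. Most of the β marker sum was Iapp. Of the other β markers, Mafa (2204, 2022 and 428 CPM), Nkx6-1 (1324, 1253 and 581), Pdx1 (259, 254 and 121) and Slc2a2 (236, 247 and 104) were higher in both mutant libraries, as were Ucn3 and Ero1b. In contrast, G6pc2 (849, 925 and 1365) and Pcsk1 (146, 145 and 246) were lower. The study's text reports lower Mafa, Nkx6-1, Pdx1 and Slc2a2 transcripts in mutant β cells, the opposite of the direction here. That comparison took 2 assays of each genotype with cells grouped by clustering. The values here are sums over cells classed by hormone share and are set against control 2 alone. The reason for the opposite direction was not tested. In δ cells the δ markers Rbp4, Hhex and Ghsr were at 891, 630 and 1008, at 89.1, 128 and 98.1 and at 0, 10.7 and 0 CPM. The 3 PP markers, mostly Pyy, summed to 32582, 42279 and 101569 CPM in PP cells and also to 9671, 14093 and 32071 in δ cells, above the δ markers there. The batch entry of control 2 ends in another figure than the rest and names no calendar day. If it stands for a batch of its own, batch and genotype cannot be told apart.

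With 1 control library there was no test between genotypes. UMIs were summed over the β cells of each library, scaled by the trimmed mean of M-values (TMM) and compared as log2 ratios to control 2, with the gap between the mutant libraries as the only scale of spread. A gene was counted where both ratios passed 0.5 in the same direction. Of the 9 members, 3 were counted as higher, Kcnj11, Trpm5 and Atp2a3, and 0 as lower. Over all 4737 genes whose mean reached 20 CPM, 14.4% were counted as higher and 32.6% as lower. The members' median ratios were -0.03 in mutant 1 and 0.05 in mutant 2, against -0.20 and -0.22 over all genes. This median depends on the scaling, at 0.42 and 0.40 on CPM of all UMIs, so ratios are also given relative to it.

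The 2 subunits of the ATP-sensitive potassium channel lay on opposite sides of control 2 with TMM, the pore above it and the regulatory subunit below it. Kcnj11 (ENSMUSG00000096146) was at 64.8 CPM in mutant 1 (95% Poisson interval 59.3 to 70.6, counting error only, as for all intervals here), 58.1 in mutant 2 (53.1 to 63.3) and 37.0 in control 2 (34.7 to 39.4). Both mutant libraries were above control 2 with intervals apart, with log2 ratios of 0.81 and 0.65 and a gap of 0.16 between the mutant libraries. Above the all-gene median they stood at 1.01 and 0.87. Abcc8 (ENSMUSG00000040136) was at 354, 390 and 509 CPM, below control 2 in both mutant libraries with ratios of -0.52 and -0.38. Only the first passed 0.5, so Abcc8 was not counted, and relative to the median of all genes its ratios were -0.32 and -0.16. They rested on 518, 505 and 988 UMIs of Kcnj11 and 2828, 3392 and 13591 UMIs of Abcc8 in mutant 1, mutant 2 and control 2.

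The L-type calcium channel pores were near control 2. Cacna1c (ENSMUSG00000051331) was at 104, 109 and 115 CPM in mutant 1, mutant 2 and control 2, with ratios of -0.15 and -0.08. Cacna1d (ENSMUSG00000015968) was at 104, 110 and 106 CPM, with ratios of -0.03 and 0.05. Neither gene lay past 0.5 in either library. Dcp1b, an mRNA decapping factor gene that overlaps Cacna1c on the other strand, had ratios of 0.94 and 0.78, and the sum of both genes had 0.02 and 0.05. The sources used here do not state whether counting used strand, so reads of overlapping genes cannot be told apart.

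The potassium channels other than the ATP-sensitive one were not counted. Kcnk16 (ENSMUSG00000023387) was at 386, 330 and 319 CPM in mutant 1, mutant 2 and control 2, with ratios of 0.27 and 0.05 and a gap of 0.22 that was larger than the second ratio. Kcnma1 (ENSMUSG00000063142) was at 207, 205 and 216 CPM, with ratios of -0.06 and -0.08. The sodium channel Scn9a (ENSMUSG00000075316) was at 39.2, 39.9 and 43.2 CPM, with ratios of -0.14 and -0.11. The levels of Kcnma1 and Scn9a in the mutant libraries differed by less than their counting intervals.

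The endoplasmic reticulum pump Atp2a3 (ENSMUSG00000020788) was higher in both mutant libraries. It was at 1435 CPM in mutant 1 (1409 to 1462), 1203 in mutant 2 (1180 to 1226) and 672 in control 2 (663 to 682). The log2 ratios were 1.09 and 0.84, with a gap of 0.25, and the mutant mean was 1.95 times control 2. Relative to the median of all genes they were 1.29 and 1.06.

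Trpm5 (ENSMUSG00000009246) had the largest ratio of the 9 members, and it overlaps another gene that was lower. Trpm5 was at 112 CPM in mutant 1 (105 to 120), 100 in mutant 2 (93.6 to 107) and 15.4 in control 2 (14.0 to 17.0), from 898, 871 and 412 UMIs. Its ratios were 2.86 and 2.69, or 3.06 and 2.92 relative to the median of all genes, and the mutant mean was 6.85 times control 2. Tssc4, a gene on the + strand of chr7:143069249-143071093 (GRCm38), lies wholly inside Trpm5 (chr7:143069153-143094642, − strand), between 96 and 1940 bases from its 3′ end. Tssc4 was at 31.6, 39.2 and 108 CPM from 253, 341 and 2890 UMIs, with ratios of -1.77 and -1.46. Summed, the pair was at 144, 139 and 124 CPM with ratios of 0.22 and 0.17. Trpm5 made up 78.0% and 71.9% of the pair's UMIs in the mutant libraries and 12.5% in control 2. How reads were divided between the overlapping genes was not tested. With the pair in place of Trpm5, 2 members were counted as higher.

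**Figure D1:**
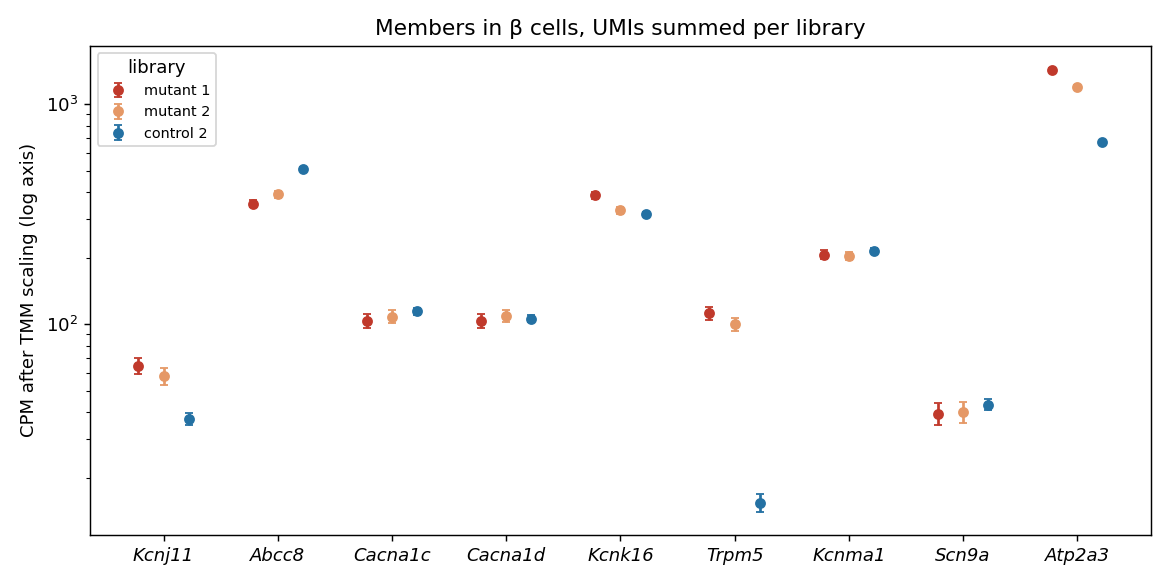
CPM after TMM scaling (log axis) of the 9 genes in the summed β cells of mutant 1, mutant 2 and control 2; points are the libraries and bars 95% Poisson intervals of the count. Kcnj11, Trpm5 and Atp2a3 lie higher in both mutant libraries, and Abcc8 lies lower, at 354 and 390 against 509.

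**Figure D2:**
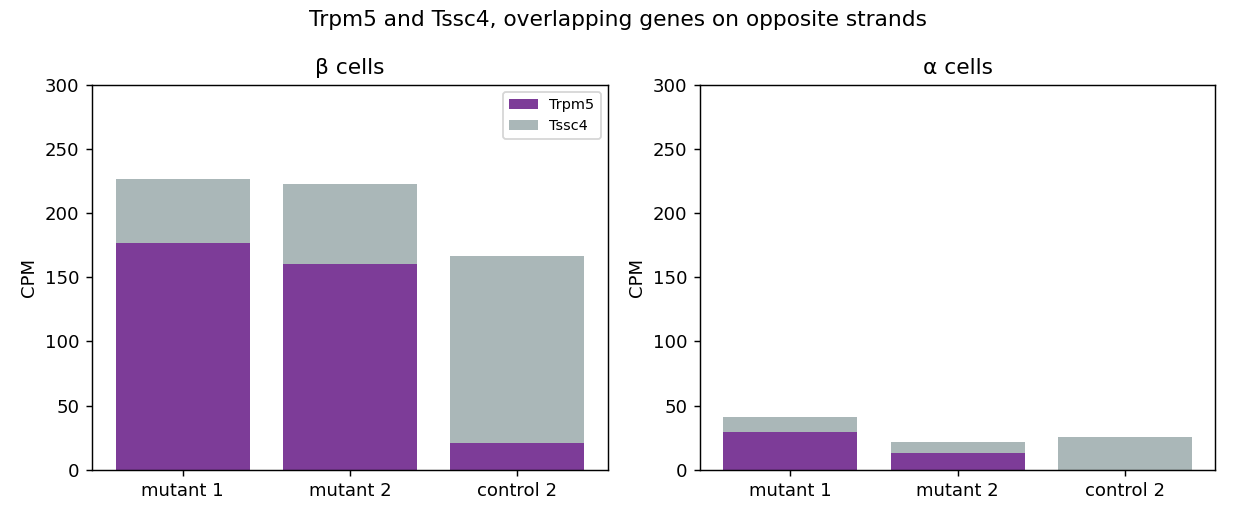
Stacked CPM of Trpm5 and Tssc4 in β and α cells of each library, on a scale set jointly over all cell classes. The stacks in β cells reach 227, 223 and 167 CPM in mutant 1, mutant 2 and control 2, and most of the stack is Trpm5 in the mutant libraries and Tssc4 in control 2.

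Depth matching was done in 2 ways, by taking β cells of 3000 to 6000 UMIs and by thinning β cells to 1000 UMIs. Thinning dropped β cells below 1000 UMIs, which were 260, 110 and 0 in mutant 1, mutant 2 and control 2. The depth range lies above the median β cell of mutant 1 (2880 UMIs), around that of mutant 2 (4615) and below that of control 2 (16300). It thus matched UMIs and not the place of a cell within its library. In the depth range (819, 616 and 270 β cells) 4 members were counted as higher, Kcnk16 in addition, and 0 as lower, while 26% of 4995 genes were counted as higher and 16.3% as lower. After thinning 3 were counted as higher, the same 3 as at full depth, against 21.2% of 4895 genes higher and 21.3% lower. On CPM of all UMIs with no TMM and no matching 6 were counted as higher, with Cacna1d, Kcnk16 and Kcnma1 added, against 41.5% of 4719 genes higher and 12.1% lower.

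The ratios of Kcnj11, Atp2a3 and Trpm5 passed 0.5 with TMM, on CPM of all UMIs, after thinning and in the depth range. In the depth range Kcnj11 had ratios of 1.13 and 1.15, Atp2a3 1.19 and 0.91, and Trpm5 3.50 and 3.34. Thinned, they were 0.96 and 0.73 for Kcnj11, 1.24 and 0.91 for Atp2a3, and 3.06 and 2.96 for Trpm5. The Trpm5 and Tssc4 pair, summed, had 0.96 and 0.85 in the depth range, from 561, 447 and 109 UMIs, and 0.45 and 0.46 after thinning, from 302, 235 and 198 UMIs. The pair was thus higher in both mutant libraries with TMM over all β cells, after thinning and in the depth range, and past 0.5 in the last of these. Tssc4 alone was at -0.95 and -0.91 in the depth range, and Trpm5 alone rested there on 14 UMIs in control 2.

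Of the remaining members, all but Kcnk16 changed the sign of their mean ratio between settings that also moved the median of all genes. Kcnk16 had ratios of 0.86 and 0.66 in the depth range and 0.66 and 0.37 after thinning, above control 2 in each. Abcc8 was at -0.30 and -0.16 in the depth range, -0.35 and -0.18 after thinning, and 0.06 and 0.22 on CPM of all UMIs. Relative to the median of all genes it was at -0.35 and -0.19 on that last scale, and its mean lay between -0.37 and -0.17 in all 22 settings. Cacna1c was at -0.23 and -0.14 in the depth range and at 0.44 and 0.52 on CPM of all UMIs. Kcnma1 was at -0.14 and -0.15 in the depth range, 0.15 and 0.18 after thinning, and 0.53 and 0.52 on CPM of all UMIs. Relative to the median of all genes in the depth range, both L-type pores, Abcc8, Kcnma1 and Scn9a were below it in both mutant libraries, at -0.05 to -0.47, and Kcnj11, Kcnk16, Trpm5 and Atp2a3 above it, at 0.53 to 3.34. With TMM over all β cells, only Abcc8 was below that median in both mutant libraries.

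**Figure D3:**
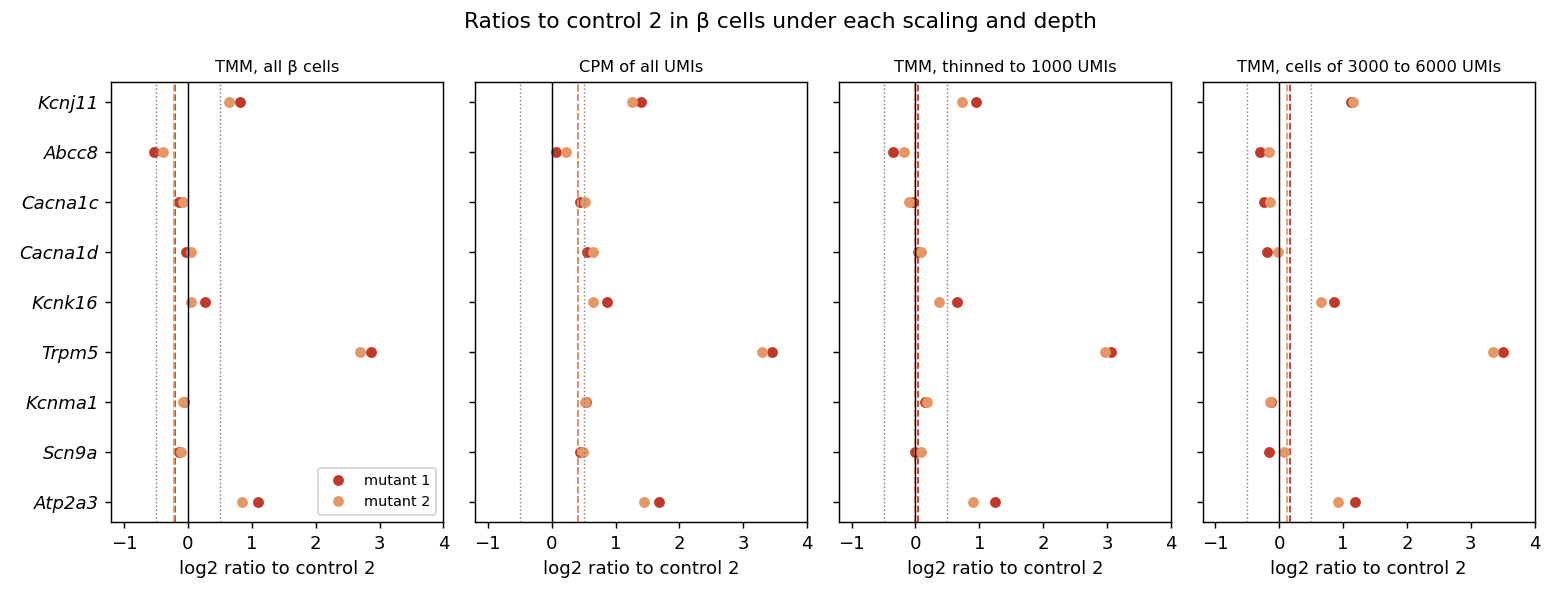
Log2 ratios of mutant 1 and mutant 2 to control 2 for each gene in β cells, in panels for TMM over all β cells, CPM of all UMIs, TMM after thinning to 1000 UMIs and TMM in cells of 3000 to 6000 UMIs. Dotted lines mark 0.5 and -0.5 and dashed lines the median of all genes; Kcnj11, Trpm5 and Atp2a3 lie past 0.5 in all 4 panels.

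Levels were also read within narrow ranges of UMIs per β cell, as CPM without hormone and mitochondrial UMIs. Between 3000 and 6000 UMIs Atp2a3 was at 2878, 2523 and 1519 CPM in mutant 1, mutant 2 and control 2, Kcnj11 at 124, 132 and 67.2, and Trpm5 at 224, 212 and 23.0, or 291, 285 and 179 for its pair with Tssc4. Kcnk16 was at 787, 725 and 522 CPM, and Abcc8 at 714, 837 and 1056. In this range Abcc8 thus lay lower in both mutant libraries, and the other 4 higher. Within control 2, from cells of 1000 to 3000 UMIs to those above 24000, Atp2a3 went from 1429 to 1133 CPM, Trpm5 from 47.1 to 25.6 (the pair from 176 to 254), Kcnma1 from 541 to 371 and Kcnk16 from 523 to 593. In mutant 1, Trpm5 was at 166, 231, 224 and 230 CPM over the 4 ranges from 500 to 12000 UMIs. The difference between mutant and control libraries at 3000 to 6000 UMIs was larger than the change with depth inside any library for Atp2a3 and Trpm5. For the pair it was of the order of that change. For Kcnj11 it was smaller than the change inside mutant 1. There Kcnj11 went from 200 CPM in cells of 500 to 1000 UMIs (24 UMIs of the gene) to 124 in cells of 3000 to 6000.

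**Figure D4:**
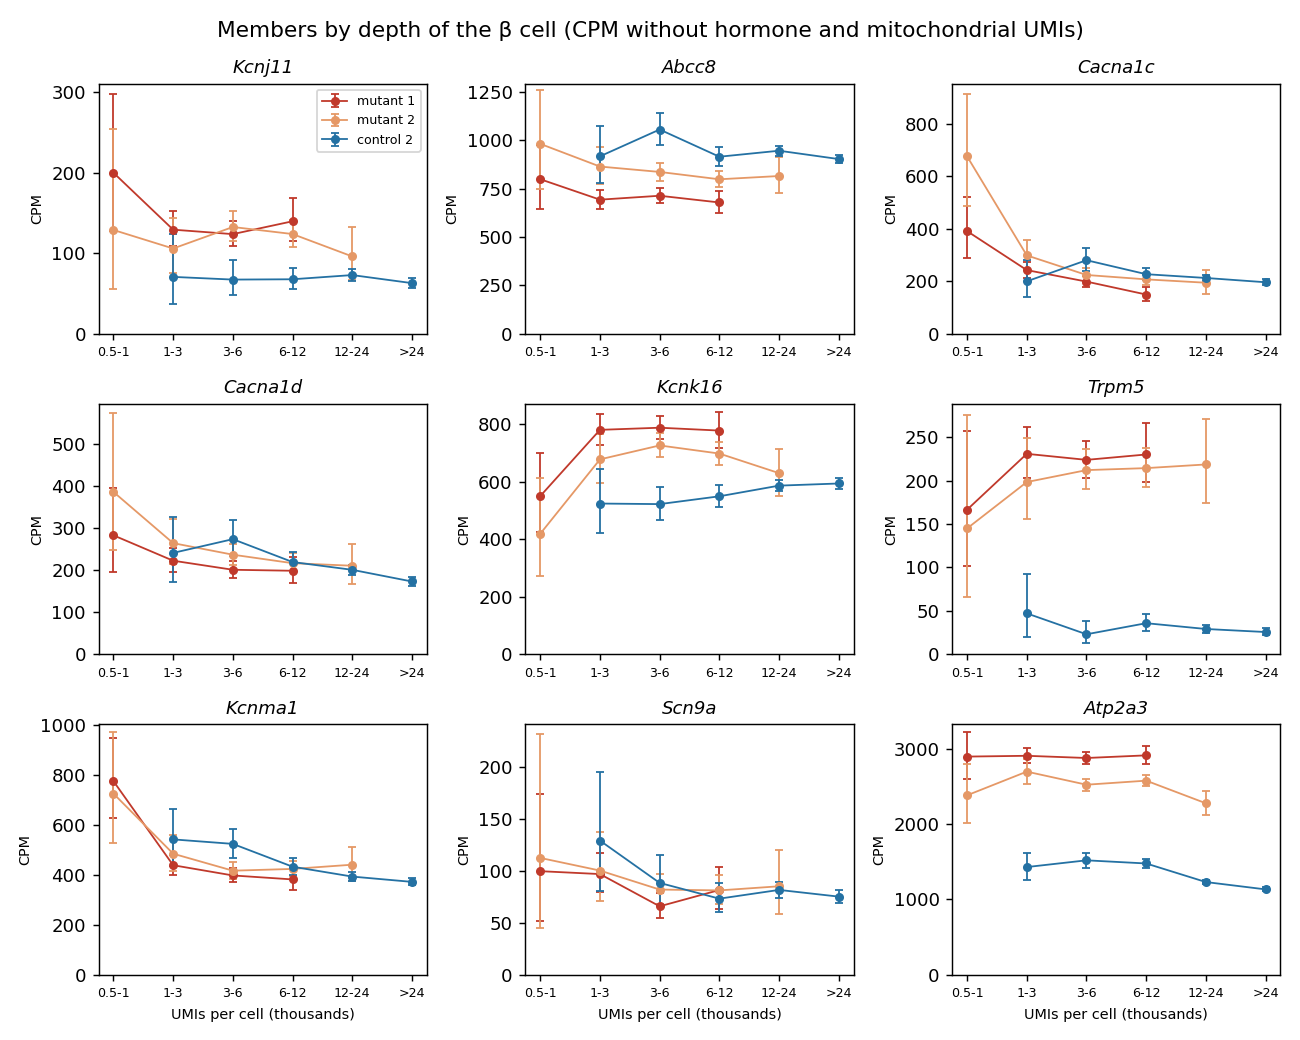
CPM without hormone and mitochondrial UMIs of each gene against the UMIs per β cell, by library; points are sums over the cells of a range and bars 95% Poisson intervals. Atp2a3, Trpm5 and Kcnj11 lie higher in the mutant libraries at 3000 to 6000 UMIs, at 2878 and 2523 against 1519 CPM for Atp2a3.

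The share of β cells in which a gene had a UMI was compared after cells of at least 1000 UMIs were thinned to 1000 (1890, 1383 and 1996 cells). Atp2a3 was found in 80.6% of β cells in mutant 1 (Clopper-Pearson 95% interval 78.8 to 82.4), 73.2% in mutant 2 (70.8 to 75.5) and 42.7% in control 2 (40.5 to 44.9). Trpm5 was found in 11.1% (9.73 to 12.6), 11.5% (9.86 to 13.3) and 1.20% (0.772 to 1.78), and Kcnj11 in 7.09% (5.97 to 8.34), 6.44% (5.20 to 7.86) and 3.36% (2.61 to 4.24). These 3 genes, with Kcnk16 at 34.2%, 30.9% and 21% and Kcnma1 at 19.9%, 21.2% and 15.8%, had intervals above control 2 in both mutant libraries, while the other 4 overlapped it. Over 4719 genes past the minimum level, 26.5% were above control 2 by this rule and 10.8% below, and the β cells of control 2 held a larger share of insulin. The Trpm5 and Tssc4 pair was found in 14.3%, 15.6% and 9.47% of β cells. Unthinned, the share of cells with a UMI was 29.8%, 37.7% and 15.5% for Trpm5 and 93.5%, 95.5% and 96.1% for Atp2a3, with 36.4%, 47.3% and 66.0% for the pair. At that depth 1 member was above and 7 were below control 2, the deeper library, as 0.593% and 93% of all genes were. In non-endocrine cells (34, 48 and 61 cells at 1000 UMIs) the shares were 32.4%, 29.2% and 16.4% for Atp2a3, 2.94%, 4.17% and 0% for Kcnj11 and 0%, 6.25% and 0% for Trpm5. Every β cell share of Atp2a3 was above the non-endocrine share of its library. The Trpm5 and Kcnj11 shares in β cells of control 2 lay below the limit of 4.92% that 0 of 61 cells allows. At 1000 UMIs they were therefore not told from background. In mutant 1 and mutant 2 the Kcnj11 shares in β cells also lay within the non-endocrine intervals (0.0744% to 15.3% and 0.509% to 14.3%). The same held for Trpm5 in mutant 2 (1.31% to 17.2%). In mutant 1 the Trpm5 share was above the limit of 8.82% that 0 of 34 cells allows. Summed at full depth, on a scale set jointly over all cell classes, Trpm5 and Kcnj11 were both above the non-endocrine cells of control 2 with intervals apart. Trpm5 was at 20.8 CPM (18.8 to 22.9) against 0 (up to 8.40), and Kcnj11 at 49.8 (46.8 to 53.1) against 11.4 (3.70 to 26.6). On that scale intervals were also apart for Trpm5 in both mutant libraries and for Kcnj11 in mutant 2. For Kcnj11 in mutant 1 they overlapped, at 102 (93.4 to 111) against 44.0 (12.0 to 113) from 4 UMIs.

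Across islet cell classes, Atp2a3 was higher in β cells than in the other 3, Kcnk16 differed between β and α cells, Kcnma1 and Cacna1c between β and PP cells, and Scn9a between β and δ cells. Differences between classes were tested in edgeR with the quasi-likelihood method over 12 sums (3 libraries by 4 classes) with library as a term, and adjusted p-values are Benjamini-Hochberg over all 4003 genes. Nothing in the labels ties libraries to separate animals beyond the pools, so these p-values speak only for these samples. With library as a term, they measure how class differences vary from library to library, with a spread moderated over genes. Differences in overall level between libraries are not part of that spread. Of the 8 members that passed the filter on low counts, 2 were higher in β than in α cells and 0 lower (21.6% and 20.2% of all genes). Against δ cells 1 was higher and 1 lower (11.7% and 9.62%), and against PP cells 3 were higher and 0 lower (13.8% and 12%). The members' median differences were 0.24, 0.07 and 0.04, against 0.03, 0.06 and 0.01 over all genes.

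Atp2a3 was the member most biased to β cells among those tested. On the scale of the class fit it was at 2260, 1923 and 906 CPM in β cells of mutant 1, mutant 2 and control 2, at 733, 602 and 256 in α cells, 869, 673 and 262 in δ cells and 554, 398 and 91.4 in PP cells. β cells were highest in every library, and α and δ cells followed at like levels above PP cells. The β minus α difference was 1.72 (SE 0.18, adjusted p = 3.68e-08), the β minus δ difference 1.57 (SE 0.19, adjusted p = 1.58e-06) and the β minus PP difference 2.39 (SE 0.20, adjusted p = 2.56e-09). Without the library term the first 2 lost their call (adjusted p = 0.0654 and 0.123). Within each library they were 1.62, 1.68 and 1.82 against α cells and 1.38, 1.51 and 1.79 against δ cells.

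The subunits of the ATP-sensitive potassium channel did not differ between islet cell classes past the threshold in this fit. Kcnj11 was at 102, 92.8 and 49.8 CPM in β cells and at 82.0, 65.4 and 72.5 in α cells, 111, 64.1 and 65.4 in δ cells and 66.0, 94.1 and 76.2 in PP cells. The β minus α contrast of Kcnj11 gave a difference of 0.18 (SE 0.22, adjusted p = 0.523), and its β minus δ and β minus PP differences were under 0.01 in size and 0.03. In control 2 alone β cells were below α cells, by -0.54, whereas mutant 1 and mutant 2 gave 0.31 and 0.50. Abcc8 was at 557, 623 and 686 CPM in β cells, 497, 465 and 542 in α cells, 713, 801 and 981 in δ cells and 561, 521 and 709 in PP cells. The order was δ cells first in every library, at a β minus δ difference of -0.43 (SE 0.17, adjusted p = 0.0701), which passed in 3 other settings (DESeq2 adjusted p = 0.0101) and was -0.02 with no filter on low counts. Against α cells Abcc8 was higher in β cells by 0.31 (SE 0.15, adjusted p = 0.113), and this passed in DESeq2 (adjusted p = 0.0395), after thinning (0.00986) and without control 2 (0.00599). Non-endocrine cells held 55.0, 77.1 and 86.5 CPM of Abcc8 and 44.0, 23.1 and 11.4 CPM of Kcnj11, below every endocrine class. The Kcnj11 values there rested on 4, 3 and 5 UMIs. Their interval overlapped every endocrine class in mutant 1 (12.0 to 113) and α, δ and PP cells in mutant 2 (4.77 to 67.6).

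Of the calcium channel pores, Cacna1d showed no class difference that passed in this fit. It was at 163, 175 and 143 CPM in β cells and 144, 198 and 128 in α cells (difference 0.04, adjusted p = 0.987). In δ cells it was at 89.1, 128 and 120 CPM and in PP cells at 145, 217 and 168. β cells were above δ cells in every library, at a difference of 0.44 (SE 0.25, adjusted p = 0.243). Cacna1c was at 163, 173 and 155 CPM in β cells and at 79.2, 79.6 and 145 in PP cells, from 12, 11 and 19 UMIs in the latter. The β minus PP difference was 0.73 (SE 0.26, adjusted p = 0.0420) and rested on the mutant libraries, at 1.04 and 1.12 against 0.10 in control 2. It lost its call without mutant 1 (adjusted p = 0.257) or mutant 2 (0.334), in DESeq2 (0.129) and in 4 other settings. In α cells Cacna1c was at 178, 183 and 252 CPM, for a β minus α difference of -0.28 (SE 0.19, adjusted p = 0.243), and in δ cells at 134, 117 and 234. In non-endocrine cells it was at 33.0, 147 and 128 CPM, so unlike Cacna1d, at 33.0, 30.9 and 25, it was not low there in mutant 2 and control 2.

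The potassium channels differed from different classes. Kcnk16 was at 607, 528 and 430 CPM in β cells, 424, 336 and 260 in α cells, 602, 502 and 360 in δ cells and 574, 601 and 518 in PP cells. It was higher in β than in α cells by 0.62 (SE 0.16, adjusted p = 0.00276), and its differences from δ (0.13, adjusted p = 0.672) and PP cells (-0.12, adjusted p = 0.644) did not pass. The α cell call was lost without mutant 2 (adjusted p = 0.0929) and without the library term (0.142). Kcnma1 was at 327, 327 and 291 CPM in β cells and 132, 181 and 168 in PP cells, a difference of 0.98 (SE 0.20, adjusted p = 0.000729). In α cells it was at 244, 272 and 218 CPM (difference 0.37, SE 0.16, adjusted p = 0.0736, which passed in the same 3 settings as Abcc8) and in δ cells at 245, 310 and 213, so PP cells were lowest in every library.

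Scn9a was the 1 member called lower in β cells than in another class. It was at 61.7, 63.8 and 58.2 CPM in β cells and at 156, 203 and 169 in δ cells, from 7, 19 and 31 UMIs there, at 85.4, 78.2 and 51.2 in α cells and at 79.2, 65.2 and 61.0 in PP cells. The β minus δ difference was -1.57 (SE 0.24, adjusted p = 3.50e-05), and within libraries it was -1.33, -1.66 and -1.53. With no filter on low counts it was -1.16. With insulin limited to 25% of the somatostatin share only 2, 1 and 3 δ cells were left and the difference was -0.36 (adjusted p = 0.828). Somatostatin was among the genes whose levels tracked Scn9a most closely (r = 0.95 over the 12 sums). Its share set the δ class, so this r is no separate support for the difference. In non-endocrine cells Scn9a was at 0, 7.71 and 0 CPM.

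Trpm5 did not pass the filter on low counts in the class fit. It was at 177, 160 and 20.8 CPM in β cells against 29.0, 12.8 and 0 in α cells (17, 9 and 0 UMIs), 22.3, 32.0 and 10.9 in δ cells (1, 3 and 2 UMIs) and 26.4, 0 and 0 in PP cells (4, 0 and 0 UMIs). With no filter the β minus class differences were 3.19 for α (adjusted p = 2.75e-20), 2.54 for δ (adjusted p = 3.55e-05) and 3.95 for PP cells (adjusted p = 1.28e-11), while the median of all genes itself was 0.46, 1.07 and 1.03 in that fit. The δ cell call was lost with insulin limited to 25% of the somatostatin share (2.17, adjusted p = 0.229). Within libraries the β minus δ difference of Trpm5 was 2.96, 2.30 and 0.90. In control 2 its interval in β cells (18.8 to 22.9) overlapped those of δ (1.32 to 39.4) and PP cells (up to 28.1). The pair with Tssc4 was also higher in β cells, by 2.84 against α (adjusted p = 8.19e-10), 1.16 against δ (adjusted p = 0.00363) and 2.74 against PP cells (adjusted p = 5.42e-07). In control 2 the pair was at 167 CPM in β cells, 20.8 of it Trpm5, and at 25.6 CPM in α cells, all of it Tssc4.

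**Figure D5:**
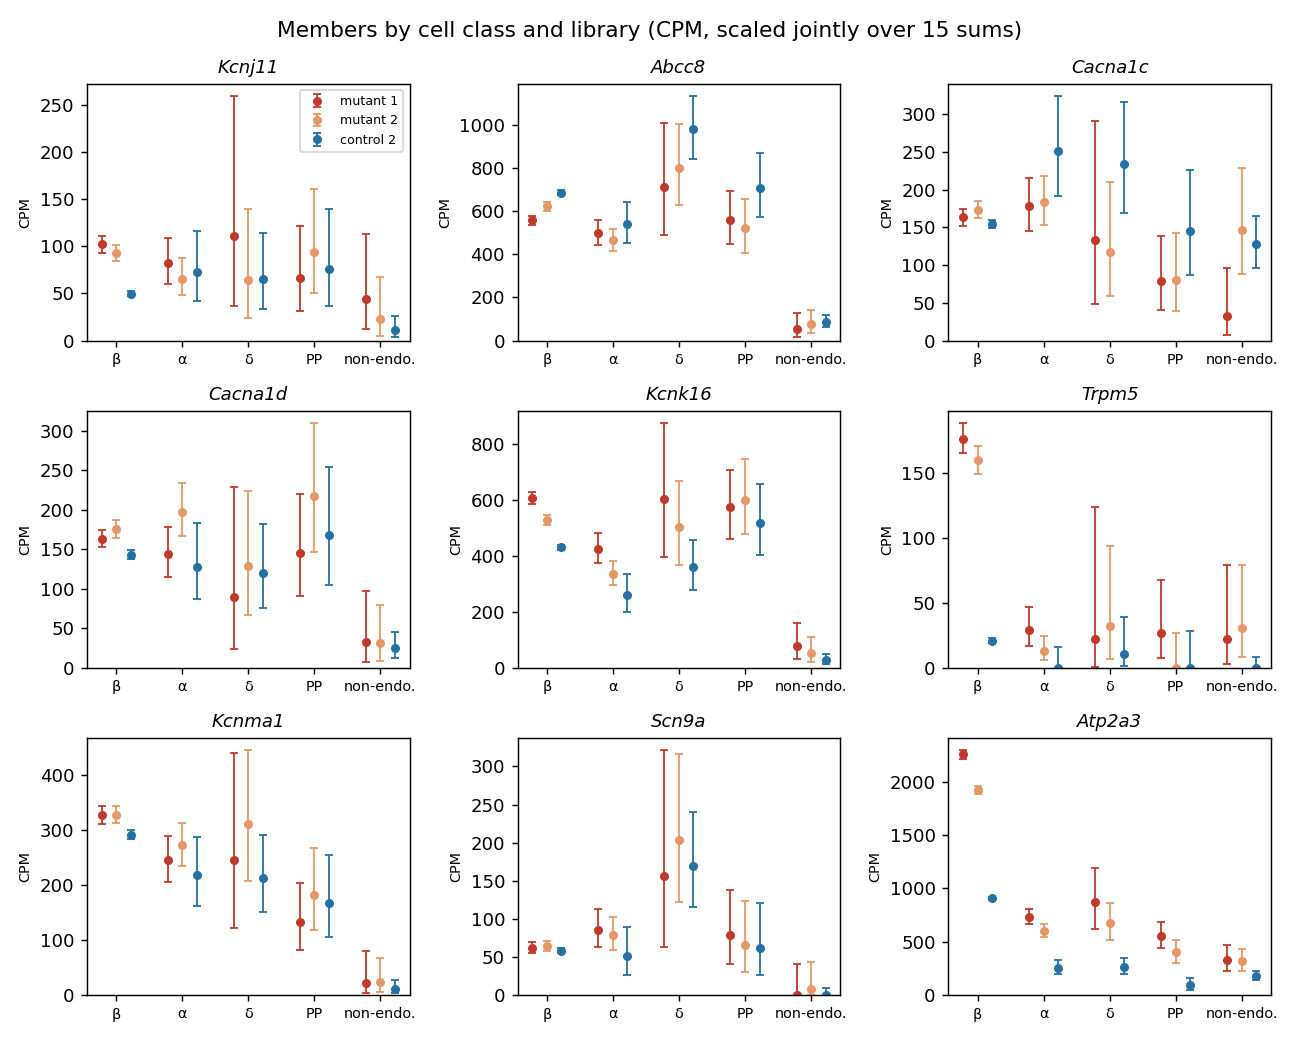
CPM of each gene in β, α, δ, PP and non-endocrine cells of mutant 1, mutant 2 and control 2, on a scale set jointly over 15 sums; bars are 95% Poisson intervals. Atp2a3 is highest in β cells, Scn9a in δ cells, and Kcnj11, Abcc8 and Cacna1d show no difference between endocrine classes that passed the test. Trpm5, which did not pass the filter of that test, is highest in β cells, with intervals that overlap those of δ and PP cells in control 2.

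In α cells of the mutant libraries, Atp2a3 again lay above control 2, with ratios of 1.66 and 1.36 from 429, 423 and 60 UMIs. Kcnk16 had ratios of 0.85 and 0.50. Kcnj11 was at 0.32 and -0.01 and Abcc8 at 0.02 and -0.08. The medians of all genes were 0.09 and 0.11. Trpm5 had 17, 9 and 0 UMIs in α cells, and in control 2 it was found in 0 of 34 cells, which allows a share of up to 8.82%. Control 2's α cells also carried more RNA of 6 endothelial markers, 495 CPM against 88.9 and 61.2, whose part in these ratios was not tested. On the joint scale the β marker Iapp was at 13908, 10984 and 6603 CPM in α cells. In non-endocrine cells it was at similar levels, 14050, 12071 and 6708 CPM. Atp2a3 was also higher in non-endocrine cells of the mutant libraries, at 330 and 316 CPM against 180. The mix of cells in that class differed between mutant 1, mutant 2 and control 2. Leukocyte markers summed there to 9117, 12418 and 5438 CPM and stellate and fibroblast markers to 782, 956 and 2294. Endothelial markers summed to 15768, 13583 and 15366 CPM. The part of this mix in the Atp2a3 levels was not tested. The Trpm5 intervals of α and non-endocrine cells overlapped in every library. The part of β cell RNA in the α cell ratios was not tested.

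A wider list of 79 channel and calcium handling genes gives the setting. Of these, 31 were past the minimum level in β cells, with 7 counted as lower and 3 as higher and median ratios of -0.29 and -0.33, while 32.6% of all genes were counted as lower and 14.4% as higher. On CPM of all UMIs 5 were counted as lower and 12 as higher, beside 12.1% and 41.5% of all genes, so the balance of the list depends on the scaling. Among the lowest was Scn3a, a sodium channel, at 16.3, 15.1 and 64.7 CPM (ratios -1.99 and -2.10). Stim1, the endoplasmic reticulum calcium sensor, was at -1.64 and -1.66 and the potassium channel Kcnk1 at -1.29 and -1.33. These 3 were also lower in the depth range, at -1.54 and -1.77 for Scn3a. The highest were the P/Q-type calcium channel pore Cacna1a, at 402, 315 and 175 CPM (1.20 and 0.85), the voltage-gated potassium channel Kcna2 (1.08 and 0.63), and the calcium release channels Itpr1 (0.51 and 0.84) and Itpr2 (0.68 and 0.22, not counted). In the depth range Cacna1a was at 1.0 and 0.63 and Kcna2 at 1.89 and 1.25, while Itpr1 was at 0.36 and 0.65 and was not counted.

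Between β and α cells, 6 of the 32 genes of the wider list that were tested were higher in β cells and 11 lower, beside 21.6% and 20.2% of all genes. After thinning 12 were tested, with 6 higher and 1 lower, beside 186 and 187 of all 610 genes tested. The largest differences were those of the potassium channel Kcnk3, at 6.50, 6.61 and 0.959 CPM in β cells against 111, 137 and 93.8 in α cells (-4.82, adjusted p = 7.53e-11), the calcium channel subunit Cacng4 (-4.50, adjusted p = 2.66e-10) and Itpr1 (-3.36, adjusted p = 1.35e-10). On the β side they were Kcnip1, a subunit of voltage-gated potassium channels (2.77, adjusted p = 1.45e-10), the cation channel Trpm3 (1.75, adjusted p = 7.67e-07) and the calcium pump Atp2a2 (1.69, adjusted p = 2.96e-07). Atp2a2 encodes the SERCA2 pump and was at 689, 808 and 611 CPM in β cells against 207, 219 and 230 in α cells, so both reticulum pumps were higher in β than in α cells. Against δ cells 3 were higher and 11 lower (11.7% and 9.62% of all genes). With the hormone share at 10% or more they were 2 and 3 of 28, beside 304 and 134 of 3706 genes. Against PP cells 8 were higher and 10 lower (13.8% and 12% of all genes). After thinning these were 6 and 1 of 12, beside 119 and 100 of 610 genes.

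Patterns most like each member were sought over the 12 sums among 6219 genes, as a description in which points share libraries and depth. No chance level for the highest of 6219 correlations was measured, and Trpm5 had at most 4 UMIs in any δ or PP sum. Trpm5 alone, without Tssc4, was nearest to Pikfyve (r = 0.95), Opcml and Ndufa4 (0.94 each), and Atp2a3 to Mrps34, Usp35 and 1110065P20Rik (0.95 each). Among the genes nearest to Kcnma1 were Eid2 (0.96) and Fam110a (0.90). Scn9a was nearest to Sst (0.95), whose share set the δ class, and to Dscam and Kcnd2 (0.92 each). Kcnk16 was nearest to Ctsd, Tspan33 (0.89 each) and Slc22a3 (0.87). Abcc8 was nearest to Rnaset2b (0.91), Abca5 (0.90) and Naa35 (0.89), Cacna1c to Plcxd3 (0.95), Rala (0.89) and Btbd7 (0.87), Cacna1d to Gle1, Mrpl44 and Adgrl3 (0.85 each), and Kcnj11 to Dnase2a, Ambra1 (0.82 each) and Pdgfa (0.81). Among the members themselves, Trpm5 and Atp2a3 had the highest correlation (0.85), and Kcnj11 and Abcc8, subunits of 1 channel, had -0.22.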

How the data were processed

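Single-cell libraries of mouse islets were read from gene by cell matrices of UMI counts, which the authors deposited after alignment, and per the labels the processing notes name GRCm39 and Seurat. The aligner, its version and the use of strand in counting were not given in the sources used here. Of the 4 labelled libraries, 3 were analysed, and the counts of control 1 were not analysed here. Only its barcodes were compared.

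Cells with at least 500 UMIs, 100 genes and at most 10% mitochondrial UMIs were kept (2940, 2040 and 2283 cells in mutant 1, mutant 2 and control 2). They were classed by hormone share of UMIs, with no clustering and no doublet caller. Cells that met no rule were left unassigned (383, 223 and 146), and an α, δ or PP cell could hold insulin up to the share of its own hormone. Non-endocrine cells had endothelial, stellate and leukocyte markers at 1% of UMIs or more.

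Counts were summed per class and library. β ratios were computed on log2 CPM with TMM (prior count 1, minimum mean of 20 CPM), and no test between genotypes was made. Class differences used the edgeR 4.0.16 quasi-likelihood test with filterByExpr and a library term, called at an adjusted p below 0.05. DESeq2 1.42.0 was an alternative (R 4.3.3, Python 3.11.15, numpy 2.4.6, scipy 1.17.1, pandas 2.3.3). Intervals are exact at 95%, and the limit for a count of 0 is 3 counts. The steps were tested on simulated data. Mutant 1 and mutant 2 differed by more than sampling noise (chi-square per degree of freedom 5.69) and were kept apart.

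All members were named. From the wider list, genes past the minimum with the 4 highest or lowest smaller ratio of same sign in both libraries, and the 3 highest or lowest called β minus α differences, were named, as were the 3 genes most like each member. A gene of each kind that met these rules is not reported here. Members and lists were chosen with earlier results of these data known, and Trpm5 with Tssc4 summed, a hormone share of 2%, the depth range on CPM of all UMIs and the ratios in α cells were chosen after the data were seen.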

Additional observations from a re-analysis of the deposited data

Results flagged for a closer look

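Kcnma1 and Scn9a had ratios to control 2 of opposite sign in β and α cells in both mutant libraries. For Kcnma1 the ratios were -0.059 and -0.078 in β cells and 0.31 and 0.45 in α cells, where it rested on 143, 191 and 51 UMIs in mutant 1, mutant 2 and control 2. For Scn9a they were -0.14 and -0.11 in β cells and 0.86 and 0.72 in α cells, from 50, 55 and 12 UMIs. For both genes the counting intervals of the mutant libraries overlapped those of control 2, in α cells and in β cells. The difference between the classes was not tested. Relative to the median of all genes, both lay above it in β cells, at 0.14 and 0.14 for Kcnma1 and 0.06 and 0.11 for Scn9a, and on CPM of all UMIs their ratios in β cells were 0.53 and 0.52 and 0.45 and 0.49.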

How the results depend on the processing

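Of the 9 members, 3 were counted as higher and 0 as lower in β cells. The count higher was 6 on CPM of all UMIs, 5 on the mean over cells and 1 at a log2 fold of 1, and the count lower ran from 0 to 1 with a mutant library left out (Abcc8, without mutant 2). Kcnj11 and Atp2a3 were counted in 21 of 22 settings (all but the fold of 1) and Trpm5 in 21 (all but its sum with Tssc4). Over all genes, 681 were higher and 1543 lower. The counts were 1960 and 573 on CPM of all UMIs, 1298 and 815 in cells of 3000 to 6000 UMIs, 1084 and 992 there on CPM of all UMIs, 1842 and 617 on the mean over cells, 1254 and 3302 at a minimum of 5 CPM, 349 and 595 at 50 CPM, and 219 and 708 at a fold of 1. Without hormone and mitochondrial genes 1362 were higher and 1774 lower, and after thinning 1039 were higher and 1045 lower. The share of counted genes that were lower was 69.4%, against 22.6% on CPM of all UMIs, 38.6% in the depth range and 50.1% after thinning. Members with a share of cells above control 2 were 5 after thinning and 1 at full depth. For β minus α, 2 of 8 members were higher, beside 866 of 4003 genes. This became 5 of 9 with DESeq2 (1118 of 12583 genes), 4 of 5 after thinning (186 of 610) and 0 of 8 with no library term (354 of 4003). With a library left out it ran from 1 of 8 without mutant 2 (462 of 4217 genes) to 5 of 9 without control 2 (1463 of 6538). For β minus δ, 1 higher (467 of 4003 genes) became 0 with no library term (203 of 4003). It became 2 with DESeq2 (380 of 13075), no filter (1046 of 25373), a hormone share of 10% (304 of 3706), insulin limited to 25% of the hormone share (213 of 3030), the pair summed (468 of 4003), or without control 2 (457 of 6538, range 1 to 2 with libraries left out). The 1 lower (385 of 4003 genes) became 2 with DESeq2 (680 of 13075), library sizes without hormone and mitochondrial genes (546 of 4003) or a hormone share of 2% (437 of 3995). It became 0 with the strict insulin rule (41 of 3030) or thinning (87 of 610), where Scn9a was not tested. Against δ cells the median difference of all genes was 0.06, and over the alternatives it ran from -0.17 (library sizes without hormone and mitochondrial genes) to 0.74 (strict insulin) and 1.07 (no filter), so δ differences depend on the setting. Differences that changed sign were all uncalled. For β minus α they were Kcnj11 (-0.037 to 0.39 with libraries left out) and Cacna1d (-0.071 with library sizes without hormones, -0.0076 at 10%, and -0.042 to 0.17 with libraries left out). For β minus δ they were Kcnj11 (0.0011 with DESeq2, 0.41 with no filter, 0.90 at 10%, 1.91 with strict insulin, 0.14 with no library term, -0.19 to 0.34 with libraries left out, 0.000265 with the pair summed and 0.18 at 2%), Cacna1c (0.36 with no filter, 0.083 at 10% and -0.22 to 0.54 with libraries left out) and Kcnk16 (-0.13 with library sizes without hormones). For β minus PP they were Kcnj11 (-0.057 with library sizes without hormones, -0.083 at 10%, -0.080 with strict insulin, -0.022 at 2% and -0.27 to 0.30 with libraries left out), Abcc8 (-0.0058 with library sizes without hormones and -0.017 to 0.13 with libraries left out), Cacna1d (0.16 with no filter, 0.0087 with strict insulin and 0.18 thinned), and Kcnk16 (0.17) and Scn9a (0.13) with no filter. The cause was not tested. No paired analysis was possible because the 3 libraries share only replicate number 2, so no 2 pairs exist. With 1 control library, spread between controls cannot be measured, and 34 control α cells and 19 to 49 cells of rare classes limit the class values.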
